A study of Mus musculus with 288 samples.

Results

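Mouse bone marrow-derived macrophages were exposed either to Sendai virus (SeV), a negative-strand RNA virus, or to Poly(I:C), a synthetic double-stranded RNA, and their transcripts were compared. The wells were taken by their labels: 24 wells with SeV and 24 with Poly(I:C), 48 of the 288 wells of the study. Each SeV well was matched to the Poly(I:C) well of the same plate and time, and the 24 unstimulated wells (NoStim) of those plates and times served as background. The study set 11 stimuli against inhibition of CDK8, a kinase of the Mediator complex. The macrophages came from C57BL/6 mice aged 12 weeks and were grown for 7 days in DMEM with 10% FBS and M-CSF. Wells of all 3 groups had been pretreated for 24 h with DMSO, with the inhibitor dCA at 100 nM or with the inhibitor BRD-6989 at 1 µM. They were collected at 15, 30, 45, 60, 90, 120, 150 and 180 min, in single wells. Wells of a pretreatment lay together on 1 plate (DMSO, dCA1 and Brd below), so the inhibitor cannot be told apart from its plate. SeV lay in plate column 2, Poly(I:C) in column 4 and NoStim in column 1, so stimulus and column cannot be told apart either. The labels name no dose of virus or Poly(I:C), and no separate cultures or animals. The p-values therefore measure the spread between wells left after plate and time are fitted, which may be technical. With single wells, that spread also holds changes of the difference with plate or time that were not fitted.

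Sendai virus is known to be sensed in the cytoplasm by RIG-I (Ddx58), which signals through the adaptor MAVS. Poly(I:C) is a known ligand of TLR3 in endosomes, which signals through TRIF (Ticam1), and of MDA5 (Ifih1) in the cytoplasm. Both routes activate IRF3, which switches on interferon-β and interferon-stimulated genes, and NF-κB, which drives inflammatory genes and its own inhibitor IκBα.

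Start regions of genes from the interferon and the NF-κB arm are shown as examples of the genes that the comparison follows. The windows are from RefSeq (GRCm38.p6), run from 250 bases before to 50 bases after a gene's start, and read 5′ to 3′ on the gene's strand. Capitals mark matches on either strand to an interferon-response motif (GAAA, any 2 bases, GAAA; TTTC on the other strand) or an NF-κB motif (GGGA, any 2 bases, TTCC; GGAA and TCCC on the other strand), each 10 bases long. Of all 32851 windows, 3.44% held the first motif and 1.47% the second. Ifit1 (chr19:34640639-34640938, plus strand), Rsad2 (chr12:26456403-26456702, minus strand) and Isg15 (chr4:156200769-156201068, minus strand) are interferon-stimulated genes. Nfkbia (chr12:55492598-55492897, minus strand) encodes IκBα, Cxcl10 (chr5:92348840-92349139, minus strand) a chemokine and Ifnb1 (chr4:88522745-88523044, minus strand) interferon-β.
Ifit1: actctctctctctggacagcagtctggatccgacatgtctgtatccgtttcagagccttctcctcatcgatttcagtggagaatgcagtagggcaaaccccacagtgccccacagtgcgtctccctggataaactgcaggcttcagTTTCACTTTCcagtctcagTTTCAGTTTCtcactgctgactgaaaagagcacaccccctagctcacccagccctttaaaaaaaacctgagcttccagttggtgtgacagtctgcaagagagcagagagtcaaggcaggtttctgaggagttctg
Rsad2: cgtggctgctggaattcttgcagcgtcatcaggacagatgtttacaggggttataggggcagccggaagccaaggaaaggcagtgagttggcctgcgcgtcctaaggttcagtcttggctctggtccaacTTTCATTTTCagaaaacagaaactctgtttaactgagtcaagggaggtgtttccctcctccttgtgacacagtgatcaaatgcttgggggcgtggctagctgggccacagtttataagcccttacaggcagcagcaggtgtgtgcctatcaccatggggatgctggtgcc
Isg15: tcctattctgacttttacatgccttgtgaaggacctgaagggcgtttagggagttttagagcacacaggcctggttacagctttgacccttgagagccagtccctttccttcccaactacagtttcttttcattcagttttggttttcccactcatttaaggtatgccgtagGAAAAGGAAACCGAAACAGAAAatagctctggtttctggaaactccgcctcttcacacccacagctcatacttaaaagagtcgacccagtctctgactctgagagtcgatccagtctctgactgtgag
Nfkbia: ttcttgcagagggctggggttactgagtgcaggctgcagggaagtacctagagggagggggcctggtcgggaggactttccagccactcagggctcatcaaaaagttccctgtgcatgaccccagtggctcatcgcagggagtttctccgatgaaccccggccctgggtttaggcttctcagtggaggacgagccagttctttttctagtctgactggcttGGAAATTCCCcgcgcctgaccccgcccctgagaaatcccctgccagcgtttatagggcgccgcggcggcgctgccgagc
Cxcl10: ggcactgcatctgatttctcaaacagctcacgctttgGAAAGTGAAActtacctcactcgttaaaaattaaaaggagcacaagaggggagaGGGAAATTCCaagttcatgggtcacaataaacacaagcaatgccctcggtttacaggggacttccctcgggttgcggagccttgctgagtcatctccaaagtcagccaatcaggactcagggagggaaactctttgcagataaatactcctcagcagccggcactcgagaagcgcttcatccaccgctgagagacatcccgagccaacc
Ifnb1: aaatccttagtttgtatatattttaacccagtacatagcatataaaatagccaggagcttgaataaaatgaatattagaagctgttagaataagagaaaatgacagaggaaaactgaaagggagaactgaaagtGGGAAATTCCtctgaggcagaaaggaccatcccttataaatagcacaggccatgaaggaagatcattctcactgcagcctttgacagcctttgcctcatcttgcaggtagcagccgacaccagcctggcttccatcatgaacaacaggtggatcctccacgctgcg
The windows of Ifit1, Rsad2 and Isg15 held 2, 1 and 3 interferon-response matches, and those of Isg15 overlap. Nfkbia held 1 NF-κB match, Ifnb1 1, and Cxcl10 1 beside 1 interferon-response match. The windows of Tlr2, Icam1 and Tnfaip2, which were lower after SeV, held neither. Of the 85 genes called lower after SeV, 67 had a window. Of these, 1, Nfkbia, held an NF-κB match and 1 an interferon-response match. Of the 46 called higher, 31 had a window, with 3 interferon-response matches and 0 NF-κB matches. Among the 4985 tested genes with a window, 222 held an interferon-response match and 106 an NF-κB match. Too many of the called genes lacked a window for shares to be compared. Of the 73 named genes, 57 had a window that was used. A match is a description of letters, and no match says only that these letters are not in the window.

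Rsad2, Ifit1 and Ccl5 rose above NoStim after both stimuli at 60 to 180 min (the late wells, 15 a stimulus), and of the 3 only Ccl5 passed the test between the stimuli. Rsad2 encodes the antiviral enzyme viperin. It was at 0, 186 and 505 CPM in NoStim, at 89.4, 1345 and 11964 CPM after Poly(I:C) and at 27.4, 604 and 7312 CPM after SeV (lowest, median and highest well; CPM is the UMI count scaled to library size, over the 45 late wells). The highest well of each stimulus was the DMSO well of 180 min. Rsad2 was 2.70 ± 0.32 (adjusted p = 1.73e-10) above NoStim after Poly(I:C) and 1.93 ± 0.33 (adjusted p = 9.68e-05) after SeV, as fitted log2 difference ± SE in edgeR's quasi-likelihood test, which gives all such values below. SeV minus Poly(I:C) was -0.77 ± 0.26, lower in 13 of 15 matched wells, and did not reach the threshold of 0.05 (adjusted p = 0.119). It passed in 8 of 25 alternative settings. Among them were the fits without the Brd plate, at -0.98 (adjusted p = 0.00619), and without 180 min, at -0.94 (adjusted p = 0.0293). The DMSO plate alone, the plate with no inhibitor, gave -1.13 (adjusted p = 1.87e-07), with the spread taken from its own wells. In the fit of all 3 plates, the Rsad2 difference within DMSO did not pass.

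Ifit1 encodes a protein that binds viral RNA and was at 0, 39.7 and 98.6 CPM in NoStim, at 12.5, 497 and 2188 CPM after Poly(I:C) and at 0, 203 and 1408 CPM after SeV. Medians of both stimuli lay above the highest NoStim well. Ifit1 was 3.67 ± 0.35 (adjusted p = 3.44e-14) above NoStim after Poly(I:C) and 3.22 ± 0.36 (adjusted p = 5.29e-11) after SeV. The difference between the stimuli was -0.46 ± 0.26 (adjusted p = 0.534), with a 95% interval of -0.97 to 0.06. On the DMSO plate alone it passed, at -1.25 (adjusted p = 0.0467), but not within DMSO in the fit of all 3 plates.

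Ccl5 encodes the chemokine RANTES and was at 0, 0 and 35.3 CPM in NoStim, at 0, 142 and 1075 CPM after Poly(I:C) and at 0, 29.9 and 156 CPM after SeV. The SeV wells held 47 UMI of it in all, against 330 after Poly(I:C) and 8 in NoStim. The difference between SeV and Poly(I:C) was -2.40 ± 0.41 (adjusted p = 3.86e-05), lower in 13 of 15 matched wells. Both stimuli stood above NoStim, Poly(I:C) by 4.86 ± 0.51 (adjusted p = 1.21e-12) and SeV by 2.46 ± 0.57 (adjusted p = 0.0158). In bulk wells, fewer responding cells and less RNA per cell cannot be told apart.

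**Figure D1:**
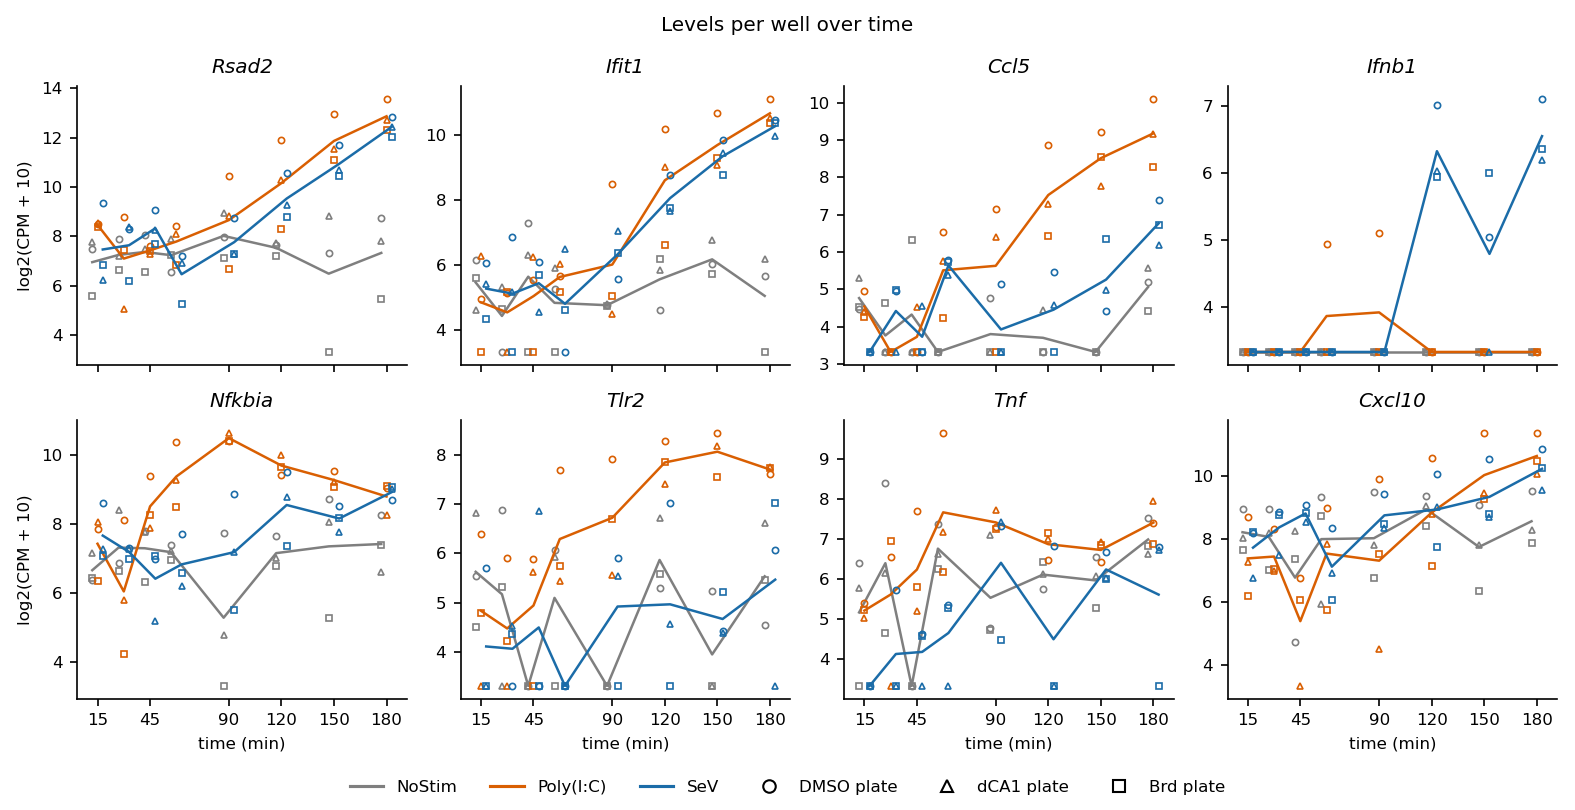
Levels of 8 genes as log2(CPM + 10) (vertical axis) against time in min (horizontal axis); each symbol is 1 well, symbol shapes are plates, and lines join the means of the 3 plates. Rsad2 and Ifit1 climb after both stimuli, Ccl5 and Tlr2 sit higher after Poly(I:C), Nfkbia peaks at 90 min after Poly(I:C), and Ifnb1 is seen in 8 of 9 SeV wells of 120 to 180 min.

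For Nfkbia and Ccl4, the fitted distance between the stimuli was smaller at 180 min than at 60 min. Nfkbia was at 749.6 ± 490.0 CPM at 60 min after Poly(I:C) and at 116 ± 71.6 CPM after SeV (mean ± SD of 3 plates, scaled over all 72 wells). At 90 min it stood at 1419 ± 139 and 207 ± 217 CPM, and at 180 min at 448 ± 134 and 477 ± 67.7 CPM. Its fitted difference went from -2.59 ± 0.55 at 60 min and -3.08 ± 0.52 at 90 min to 0.11 ± 0.49 at 180 min. Ccl4, a macrophage chemokine, went from -2.00 ± 0.45 at 60 min to 0.45 ± 0.38 at 180 min. Ccl5 was at -2.84 ± 1.19 at 90 min and -2.54 ± 0.92 at 180 min. Rsad2 was at 641 ± 666 CPM after Poly(I:C) and 235 ± 155 CPM after SeV at 90 min, and at 7966 ± 3750.0 and 5670.0 ± 1600.0 CPM at 180 min. These values by time rest on 3 wells a stimulus and are given without a test.

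The 72 wells held 50175 to 125974 UMI, 278305 to 804165 reads and 4127 to 6761 detected genes each. The share of UMI from Rn45s, the 45S ribosomal RNA precursor, was lowest in the Poly(I:C) wells, where stimulus and plate column cannot be told apart. It was 40.3% ± 6.64 in the late Poly(I:C) wells, 49.7% ± 6.54 in the late SeV wells and 51.9% ± 5.71 in the late NoStim wells (mean ± SD, n = 15 each), and lower after Poly(I:C) than after SeV in 24 of 24 matched wells. At 15 min it was already 43.6%, 35.9% and 26.8% after Poly(I:C) on the DMSO, dCA1 and Brd plates, against 44.7%, 51.4% and 45.3% after SeV and 57.3%, 55.1% and 40.1% in NoStim. Macrophage identity genes summed to 6751 to 13172 CPM per late well. Markers of other cells summed to at most 37.4 CPM for T and NK cells, 34.5 for B cells, 67.8 for neutrophils, 73.3 for mast cells (seen after Poly(I:C), at 0 in NoStim and after SeV), 70.4 for stroma and 324 for dendritic cells. Cd3e, Elane, Flt3, Zbtb46, Cpa3, Col1a1 and all 8 erythroid genes had 0 UMI in the 45 late wells.

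**Figure D2:**
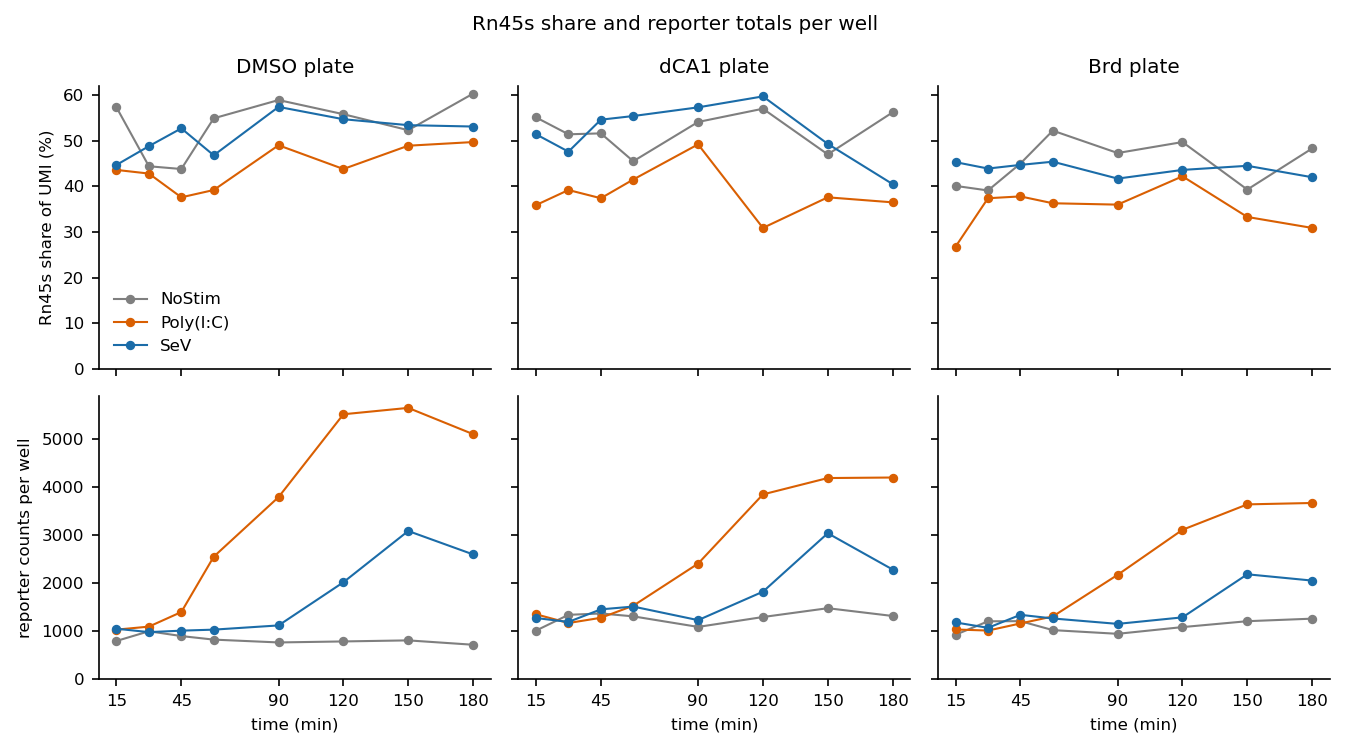
Upper row: Rn45s share of UMI in percent; lower row: reporter counts per well; both against time in min, 1 point per well and 1 column of plots per plate. The Poly(I:C) wells have the lowest Rn45s share in 24 of 24 matched sets, and their reporter totals reach 5655 counts against 3088 after SeV.

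In the late wells, 131 of 6173 tested genes (2.12%) differed between SeV and Poly(I:C), 46 higher after SeV (0.745%) and 85 lower (1.38%). The split moved with scaling: DESeq2 gave 125 higher and 97 lower, and library sizes alone 23 higher and 153 lower. Those scalings put the median of all genes at 0.13 and -0.21 log2 units, against -0.0037 in the fit reported. Against NoStim, 146 genes (2.37%) were called after Poly(I:C) and 13 (0.211%) after SeV. Poly(I:C) raised 110 genes (1.78%) and lowered 36 (0.583%), while SeV raised 12 (0.194%) and lowered 1 (0.0162%). These comparisons share the NoStim wells with each other and the stimulated wells with the comparison between the stimuli. Of the 85 genes called lower after SeV, 60 were called above NoStim after Poly(I:C) and 2 after SeV. Those shares over all tested genes were 1.78% and 0.194%. Of the 46 called higher, 15 were called below NoStim after Poly(I:C) and 0 above NoStim after SeV, against 0.583% and 0.194% of all tested genes. The genes that SeV raised were Ifnb1, Ifit1, Ifit2, Rsad2, Mx1, Cmpk2, Irf1, Ccl4, Ccl5, Ccl7, Bmp2 and Usp42, and Gcat fell; Mx1, Cmpk2, Irf1, Bmp2, Usp42 and Gcat were named after their values were seen.

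With each well's Rn45s share as a covariate, 22 genes were called, 19 of them among the 131. The share was lower after Poly(I:C) than after SeV in 24 of 24 matched wells. Covariate and stimulus therefore overlap, and a lost call does not tell them apart. Of the called genes described here, Ccl5, Nfkbia, Tlr2, Tnfaip2, Icam1, Cd83, Mcl1, Ifi27l2a, Ldha, Ctsd, Psap and Rpl23a kept the call, and the others lost it. Without the DMSO, dCA1 or Brd plate, 65, 39 and 53 genes were called, and 56 and 57 without 120 or 150 min. Against NoStim, the 13 genes called after SeV became 5 without the DMSO plate, 7 without the Brd plate and 4 without 180 min, and the 146 after Poly(I:C) became 81, 92 and 82 without the DMSO, dCA1 or Brd plate. Of 40 named genes called between the stimuli, 9 were called in all 8 fits that left out a plate or a time: Ccl5, Nfkbia, Tlr2, Tnfaip2, Mcl1, Slfn2, Ifi27l2a, Lyz1 and C1qb. The call was lost in 1 to 3 of those fits for 9 genes and in 4 or more for 22.

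**Figure D3:**
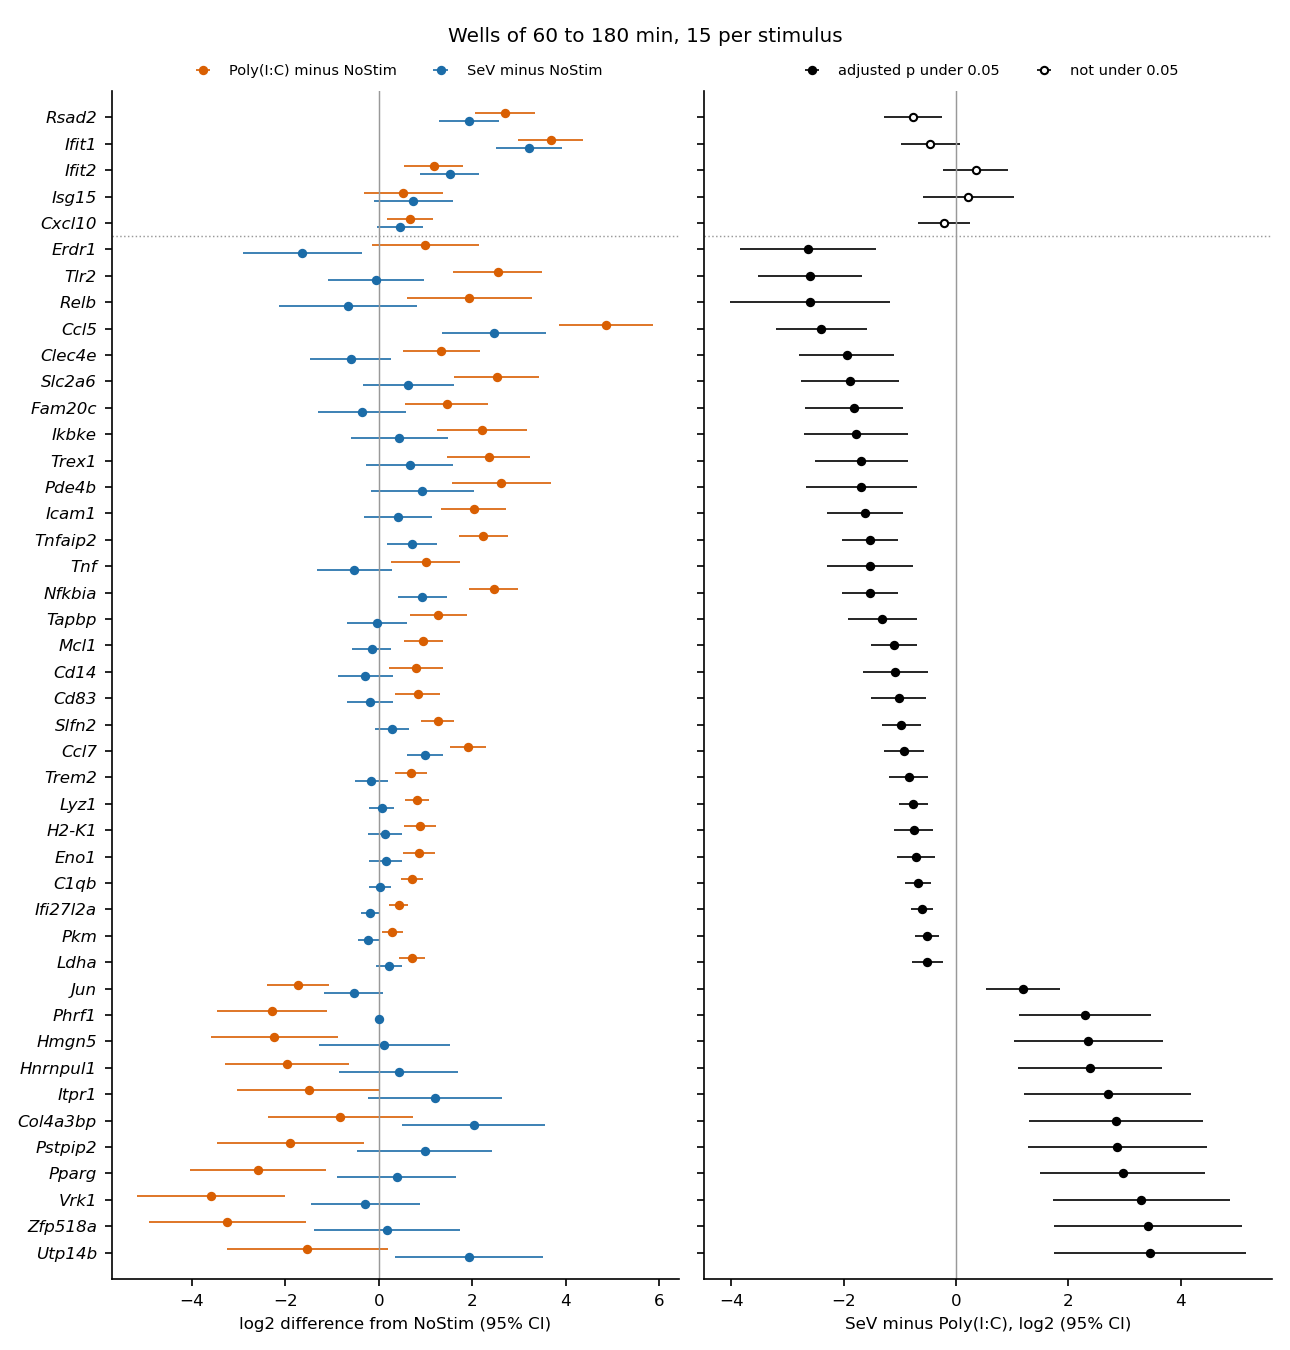
Left: log2 difference of Poly(I:C) and of SeV from NoStim; right: SeV minus Poly(I:C), filled where the adjusted p is under 0.05; points are fitted values from the late wells and bars 95% confidence intervals (none drawn for the Phrf1 value after SeV, which lies at 0.01). The 5 interferon-response genes above the dotted line lie between -0.77 and 0.35 on the right and did not pass; both sides use the same Poly(I:C) and SeV wells.

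Genes of both NF-κB lists were among those lower after SeV. Over all tested genes, 1.38% were called lower, 1.78% above NoStim after Poly(I:C) and 0.194% above NoStim after SeV. Of 17 tested inflammatory cytokine and mediator genes, 4 were lower and 0 higher, with a median of -1.43 log2 units. Of 30 NF-κB feedback and survival genes, 5 were lower (Tnfaip2, Nfkbia, Tlr2, Ehd1 and Relb) and 0 higher, with a median of -0.60. Poly(I:C) raised 7 and 9 members of these lists above NoStim. SeV raised 0 and 0 by edgeR, with 3 and 6 at an unadjusted p under 0.05. With the covariate for the Rn45s share, 2 of 17 and 3 of 30 were called lower after SeV.

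Tlr2, the receptor for bacterial lipoproteins, was at 0, 28.4 and 99.8 CPM in NoStim, at 32.6, 185 and 332 CPM after Poly(I:C) and at 0, 11.2 and 123 CPM after SeV. Its SeV wells lay in the range of NoStim apart from the highest. It differed by -2.60 ± 0.47 (adjusted p = 9.13e-05), lower in 15 of 15 matched wells. Nfkbia was at 0, 136 and 426 CPM in NoStim, at 283, 648 and 1582 CPM after Poly(I:C) and at 34.5, 279.7 and 739 CPM after SeV. It differed by -1.53 ± 0.25 (adjusted p = 1.29e-05), lower in 13 of 15 matched wells, and stood 2.46 ± 0.26 (adjusted p = 2.56e-12) above NoStim after Poly(I:C) and 0.93 ± 0.27 (adjusted p = 0.197) after SeV. Tnfaip2, a TNF-induced gene, was at 0, 102 and 294 CPM in NoStim, at 207, 599.9 and 1309 CPM after Poly(I:C) and at 78.3, 178 and 493 CPM after SeV. Its difference was -1.53 ± 0.25 (adjusted p = 1.18e-05), lower in 14 of 15 matched wells. Relb, an NF-κB subunit, differed by -2.60 ± 0.72 (adjusted p = 0.0286) on 19, 79 and 12 UMI (NoStim, Poly(I:C) and SeV). Mcl1, a survival protein of the BCL2 family, differed by -1.11 ± 0.21 (adjusted p = 0.000199). The call of Relb was lost without the DMSO or dCA1 plate or without 90, 120, 150 or 180 min (adjusted p up to 0.465).

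Icam1, an adhesion molecule for leukocytes, was at 0, 61.4 and 221 CPM in NoStim, at 21.8, 262 and 859 CPM after Poly(I:C) and at 0, 96.3 and 279 CPM after SeV. The difference was -1.62 ± 0.34 (adjusted p = 0.00144). Clec4e, the glycolipid receptor Mincle, differed by -1.94 ± 0.43 (adjusted p = 0.00232). Cd83, a marker of activated antigen-presenting cells, differed by -1.02 ± 0.25 (adjusted p = 0.00747). Tnf, the inflammatory cytokine, was at 16.1, 73.6 and 172 CPM in NoStim, at 61.4, 126 and 750.2 CPM after Poly(I:C) and at 0, 53.5 and 151 CPM after SeV. Its difference was -1.53 ± 0.39 (adjusted p = 0.0132). The call of Icam1 was lost without the DMSO or Brd plate or without 120 or 150 min (adjusted p up to 0.0969). That of Clec4e was lost without the Brd plate (adjusted p up to 0.0677). That of Cd83 was lost without the DMSO plate or without 120 or 150 min (adjusted p up to 0.547). That of Tnf was lost without the DMSO, dCA1 or Brd plate or without 60 or 120 min (adjusted p up to 0.299). Against NoStim, Tnf stood at 1.01 ± 0.37 (adjusted p = 0.161) after Poly(I:C) and -0.53 ± 0.41 (adjusted p = 0.973) after SeV. Il1b was too low to test, at 12, 29 and 2 UMI in NoStim, Poly(I:C) and SeV, a ratio of SeV to Poly(I:C) of 0.0780 with a 95% counting interval of 0.00902 to 0.308. Il6 had 1, 1 and 3 UMI.

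Several inflammatory genes did not pass between the stimuli in the fit over all late wells. Cxcl2, a neutrophil chemokine, stood 2.17 ± 0.35 (adjusted p = 3.61e-06) above NoStim after Poly(I:C), and its SeV minus Poly(I:C) value was -0.81 ± 0.34 (adjusted p = 0.296). It passed in 3 of 25 alternative settings, at -1.48 (adjusted p = 0.00570) without 150 min. Cxcl1 was at -1.17 ± 0.80, the deubiquitinase gene Tnfaip3 at -0.52 ± 0.41, Nfkbiz at -0.08 ± 0.41, Il12b at 0.25 ± 0.73 and the phosphatase gene Dusp1 at -1.62 ± 0.78, with adjusted p from 0.414 to 0.978. Of 9 CC chemokines, 2 were lower after SeV, against 1.38% of all tested genes. Ccl7, a monocyte chemokine, was at 85.2, 262 and 586 CPM in NoStim, at 307, 1034 and 2069 CPM after Poly(I:C) and at 251, 563 and 1456 CPM after SeV. It differed by -0.92 ± 0.18 (adjusted p = 0.000461), lost without 90 min (adjusted p up to 0.0529), and stood above NoStim after both stimuli, by 1.91 ± 0.19 and 0.99 ± 0.19. Ccl4 rose after both, by 2.33 ± 0.23 and 1.72 ± 0.23, and SeV minus Poly(I:C) was -0.61 ± 0.21 (adjusted p = 0.133), passing in 3 of 25 settings, at -0.97 (adjusted p = 0.00589) without 180 min. For Ccl3 it was -0.59 ± 0.33 (adjusted p = 0.513). Of 7 CXC chemokines, 0 were called by edgeR and 0 by DESeq2, with 1 at an unadjusted p under 0.05. Over all tested genes edgeR called 2.12%, so a list of this size would hold few calls.

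**Figure D4:**
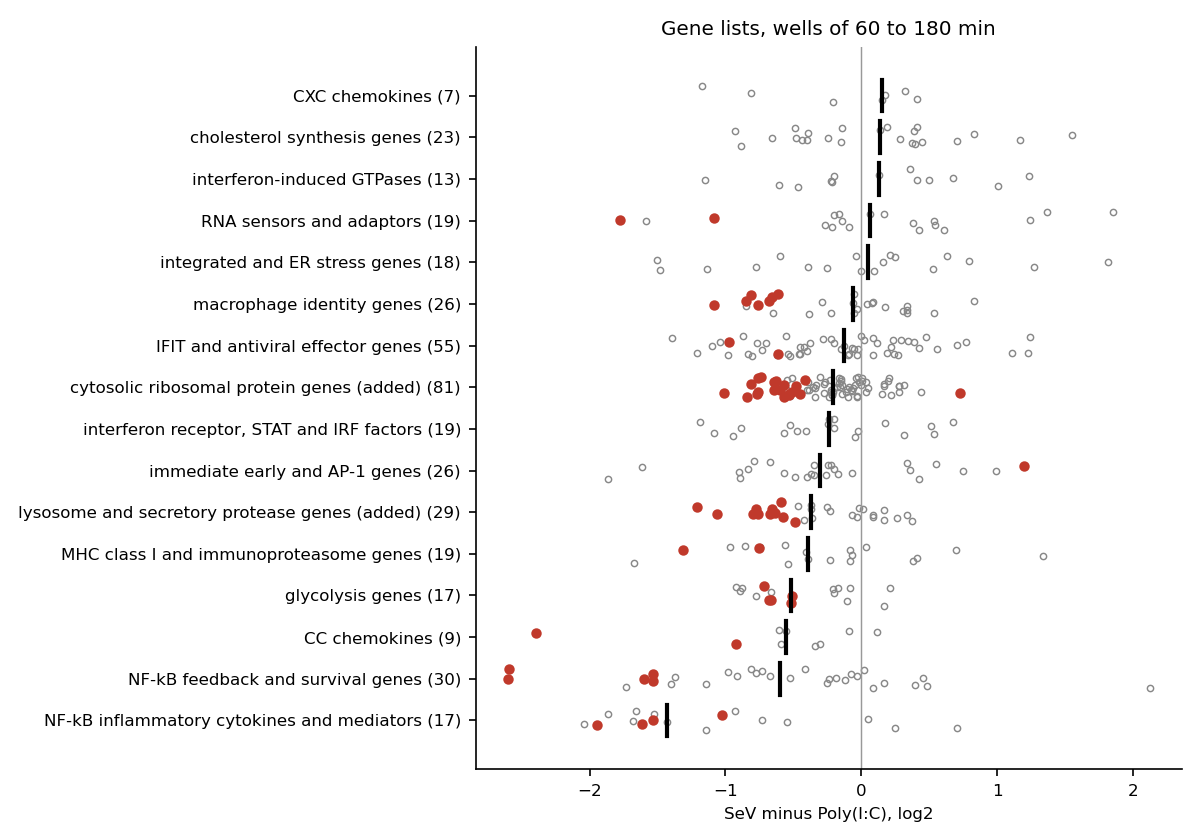
SeV minus Poly(I:C) in log2 units (horizontal axis) of each tested member of 16 gene lists (rows, number tested in brackets), late wells; red points have an adjusted p under 0.05 and black bars are list medians. Of the plotted lists, the NF-κB lists have medians of -1.43 and -0.60, CC chemokines -0.56, interferon receptor, STAT and IRF genes -0.24, IFIT and antiviral effector genes -0.13 and interferon-induced GTPases 0.13, the last of which turned to -0.08 with library sizes alone.

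Interferon-response genes were described by 3 lists. Of 55 IFIT and antiviral effector genes, 2 were lower after SeV and 0 higher, a share not below the 1.38% of all tested genes called lower, with a median of -0.13 that turned to 0.01 under DESeq2. Poly(I:C) raised 9 of them above NoStim and SeV 5, against 1.78% and 0.194% of all tested genes. The lower ones were Slfn2, a schlafen gene, and Ifi27l2a, an interferon-inducible gene. Slfn2 was at 137, 242 and 625 CPM in NoStim, at 289, 635 and 1165 CPM after Poly(I:C) and at 119.6, 310.5 and 803 CPM after SeV, a difference of -0.97 ± 0.18 (adjusted p = 0.000115) that was lost with the Rn45s covariate. Ifi27l2a differed by -0.61 ± 0.10 (adjusted p = 1.24e-05) and was lower in 15 of 15 matched wells. Of 13 interferon-induced GTPases and 19 interferon receptor, STAT and IRF genes, 0 and 0 were called by edgeR and 0 and 0 by DESeq2, with 2 and 0 at an unadjusted p under 0.05; at 2.12% of all genes called, lists of this size would hold few calls.

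Ifit2 rose after both stimuli, by 1.52 ± 0.32 (adjusted p = 0.00598) after SeV and 1.17 ± 0.32 (adjusted p = 0.0211) after Poly(I:C), with 0.35 ± 0.29 between them (unadjusted 95% interval -0.23 to 0.93). SeV minus Poly(I:C) was -1.04 ± 0.47 for Ifit3 (interval -1.98 to -0.10) and 0.22 ± 0.41 for the ubiquitin-like modifier gene Isg15 (interval -0.59 to 1.02). It was -0.24 ± 0.37 for Irf7, a driver of interferon production (interval -0.97 to 0.49), and -1.08 ± 0.60 for Usp18, which removes ISG15 (interval -2.27 to 0.10). Adjusted p for Ifit3, Isg15, Irf7 and Usp18 ran from 0.363 to 0.932. Oasl1, an OAS-like gene, rose after Poly(I:C) by 1.86 ± 0.47 (adjusted p = 0.0109) with -1.21 ± 0.44 (adjusted p = 0.171) between the stimuli. Cxcl10 was at 49.3, 319 and 728 CPM in NoStim, at 12.5, 571 and 2629 CPM after Poly(I:C) and at 54.7, 433 and 1864 CPM after SeV. Its SeV minus Poly(I:C) value was -0.21 ± 0.23 (adjusted p = 0.842).

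Ifnb1, the gene of interferon-β, was seen mainly after SeV. It had 0, 4 and 41 UMI in NoStim, Poly(I:C) and SeV. The Poly(I:C) counts lay in the DMSO wells of 60 and 90 min, and the SeV counts in 8 of the 9 wells of 120 to 180 min. At 180 min the DMSO, dCA1 and Brd wells held 9, 4 and 6 UMI after SeV and 0 each after Poly(I:C). SeV stood above NoStim (adjusted p = 0.00598), at least 13.2-fold higher with the NoStim wells together set at a floor of 3 UMI. The ratio of SeV to Poly(I:C) was 11.6, with a 95% counting interval of 4.20 to 44.5. The fitted difference of 2.64 ± 0.98 (adjusted p = 0.191) did not pass over the wells, but passed in wells of 120 to 180 min, at 5.24 (adjusted p = 0.00392), without the DMSO plate, at 3.84 (adjusted p = 0.0362), and without blocks. The other 20 interferon genes listed had 0 UMI in all 45 late wells; a count of 0 over the 15 wells of a stimulus allows up to 3 UMI. Intervals and floors cover counting error only.

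Of 19 RNA sensors and adaptors, 2 were lower after SeV, against 1.38% of all tested genes. Ikbke encodes IKKε, a kinase that acts on IRF3, and differed by -1.78 ± 0.47 (adjusted p = 0.0195). Cd14, a co-receptor of Toll-like receptors, differed by -1.08 ± 0.29 (adjusted p = 0.0246). The call of Ikbke was lost without the dCA1 or Brd plate or without 120 or 150 min (adjusted p up to 0.386). That of Cd14 was lost without the DMSO, dCA1 or Brd plate or without 90, 120 or 150 min (adjusted p up to 0.370). With the Rn45s share as a covariate, the list had 0 lower calls. Ddx58, which encodes RIG-I, was at 0, 110.4 and 472 CPM in NoStim, at 0, 32.6 and 270.1 CPM after Poly(I:C) and at 0, 115 and 256 CPM after SeV. SeV lay above Poly(I:C) in 13 of 15 matched wells, with a fitted value of 1.24 ± 0.42 (adjusted p = 0.123) that passed with DESeq2, at 1.41 (adjusted p = 0.0123), and in 3 of 25 alternative settings in all. Ifih1 was at -0.09 ± 0.49 (adjusted p = 0.978) and Tlr3 by -1.59 ± 0.85 (adjusted p = 0.500), the latter on 11, 33 and 7 UMI in NoStim, Poly(I:C) and SeV. Ticam1 (6, 8 and 11 UMI) and Mavs (8, 10 and 3 UMI) were too low to test.

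Outside these lists, Erdr1, Slc2a6, Fam20c, Trex1 and Pde4b were among the largest differences toward lower levels after SeV. Erdr1 was at 0, 32.3 and 106 CPM in NoStim, at 12.2, 74.7 and 156 CPM after Poly(I:C) and at 0, 0 and 54.7 CPM after SeV. It differed by -2.63 ± 0.61 (adjusted p = 0.00532), lower in 15 of 15 matched wells. Slc2a6, a sugar transporter, differed by -1.89 ± 0.44 (adjusted p = 0.00520), Fam20c, a kinase of secreted proteins, by -1.81 ± 0.44 (adjusted p = 0.00804) and Trex1, a DNA exonuclease, by -1.69 ± 0.42 (adjusted p = 0.0107). Pde4b, a cAMP phosphodiesterase, differed by -1.68 ± 0.50 (adjusted p = 0.0497), lost in 8 of the 8 left-out fits (adjusted p up to 0.419). The call of Erdr1 was lost without the DMSO or dCA1 plate or without 120 min (adjusted p up to 0.138). That of Slc2a6 was lost without the DMSO or dCA1 plate or without 150 min (adjusted p up to 0.189). That of Fam20c was lost without the DMSO or dCA1 plate or without 120 min (adjusted p up to 0.0969). That of Trex1 was lost without the dCA1 or Brd plate or without 120 or 150 min (adjusted p up to 0.272). Slc2a6, Trex1 and Pde4b rose above NoStim after Poly(I:C), by 2.52 ± 0.46, 2.35 ± 0.45 and 2.62 ± 0.53. After SeV they stood at 0.63 ± 0.49, 0.66 ± 0.47 and 0.93 ± 0.56, which did not pass.

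Of 19 MHC class I and immunoproteasome genes, 2 were lower after SeV: H2-K1, a class I heavy chain, by -0.75 ± 0.17 (adjusted p = 0.00532), and Tapbp, the peptide-loading factor tapasin, by -1.31 ± 0.31 (adjusted p = 0.00605). Over all tested genes, 1.38% were called lower and 0.745% higher. The call of H2-K1 was lost without the DMSO, dCA1 or Brd plate or without 120 min (adjusted p up to 0.150). That of Tapbp was lost without the DMSO or Brd plate or without 120 or 150 min (adjusted p up to 0.179). Both calls were lost with the Rn45s covariate. Of 26 immediate early and AP-1 genes, 1 was higher after SeV and 0 lower. It was Jun, an AP-1 subunit, at 23.6, 153 and 659 CPM in NoStim, at 0, 51.8 and 147 CPM after Poly(I:C) and at 53.5, 135 and 239.6 CPM after SeV. Jun fell below NoStim after Poly(I:C), with -1.74 ± 0.34 (adjusted p = 0.000181), and SeV minus Poly(I:C) was 1.19 ± 0.33 (adjusted p = 0.0298), kept without 60 min and lost in the other 7 left-out fits (adjusted p up to 0.348) and with the Rn45s covariate. Fos was at 0.34 ± 0.72 (adjusted p = 0.942), and Egr1 (6, 15 and 13 UMI) was not tested.

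Some genes of glycolysis and of macrophage identity were lower after SeV. Of all 6173 tested genes, 1.38% were called lower. Of 17 glycolysis genes, 5 were lower (Pkm, Eno1, Ldha, Gpi1 and Tpi1), with a median of -0.52. Pkm, pyruvate kinase, was at 860.2, 1239 and 1576 CPM in NoStim, at 1162, 1505 and 1979 CPM after Poly(I:C) and at 693, 1090.0 and 1423 CPM after SeV, a difference of -0.52 ± 0.11 (adjusted p = 0.00176), lower in 15 of 15 matched wells. Eno1, enolase, differed by -0.72 ± 0.17 (adjusted p = 0.00732) and Ldha, lactate dehydrogenase A, by -0.51 ± 0.14 (adjusted p = 0.0249). Of 26 macrophage identity genes, 7 were lower, with a median of -0.06 that turned to 0.07 under DESeq2. Lyz1, a lysozyme, was at 281, 573 and 988 CPM in NoStim, at 699, 1096 and 1497 CPM after Poly(I:C) and at 469, 642 and 877 CPM after SeV, a difference of -0.76 ± 0.13 (adjusted p = 3.86e-05). C1qb, a complement subunit, differed by -0.68 ± 0.12 (adjusted p = 4.08e-05) and Trem2, a lipid receptor, by -0.85 ± 0.17 (adjusted p = 0.00101). The call of Pkm was lost without the Brd plate or without 60 or 120 min (adjusted p up to 0.154). That of Eno1 was lost without the DMSO, dCA1 or Brd plate or without 120 min (adjusted p up to 0.217). That of Ldha was lost without the DMSO, dCA1 or Brd plate or without 60, 90, 120 or 150 min (adjusted p up to 0.252). That of Trem2 was lost without the dCA1 or Brd plate or without 120 min (adjusted p up to 0.0871).

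The next 2 lists were added after values had been seen and are given as a description. Over all tested genes, 1.38% were called lower and 0.745% higher. Of 29 lysosome and secretory protease genes, 11 were lower after SeV (median -0.37), among them the cathepsin gene Ctsd at -0.80 ± 0.09 and Psap, a saposin precursor, at -1.06 ± 0.14. Of 81 cytosolic ribosomal protein genes, 19 were lower and 1, Rpl23a, higher (median -0.21). The Rn45s share of the same wells was lower after Poly(I:C) from 15 min on. With it as a covariate, 1 of 17 glycolysis, 0 of 26 macrophage identity, 5 of 29 lysosome and 0 of 81 ribosomal protein genes were called lower after SeV.

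The 10 largest differences toward higher levels after SeV belonged to Utp14b, Zfp518a, Vrk1, Pparg, Pstpip2, Col4a3bp, Itpr1, Hnrnpul1, Hmgn5 and Phrf1, at 2.29 to 3.46 log2 units with adjusted p from 0.00758 to 0.0349. All were low in counts, at 31 to 92 UMI over the 15 SeV wells. Like the other genes called higher, they were not called above NoStim after SeV. They entered by a minimum mean of 2 UMI per well in either group, which they could pass on the SeV wells alone. Vrk1, a nuclear kinase, had 42, 3 and 49 UMI in NoStim, Poly(I:C) and SeV and differed by 3.30 ± 0.79. Pparg, a nuclear receptor of lipid metabolism, had 43, 6 and 66 UMI and differed by 2.97 ± 0.74. Zfp518a had 25, 2 and 31 UMI and Utp14b 13, 3 and 40 UMI. The 15 Poly(I:C) wells together held at most 6 UMI of any of these genes. Each of the 10 lost the call in at least 4 of the 8 left-out fits and with the Rn45s share as a covariate. Malat1, an abundant nuclear RNA named after its value was seen, was higher after SeV by 1.18 ± 0.15 (adjusted p = 1.80e-08), and was not called with the Rn45s covariate.

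At 15 to 45 min, 27 genes (0.437%) differed between the stimuli, 8 higher after SeV (0.130%) and 19 lower (0.308%). Against NoStim, 27 genes (0.437%) were called after Poly(I:C) and 0 (0.00%) after SeV by edgeR, the latter with 294 at an unadjusted p under 0.05. Pkm was lower after SeV by -0.63 ± 0.13 (adjusted p = 0.00114), Lyz1 by -0.73 ± 0.16 (adjusted p = 0.00754) and C1qb by -0.56 ± 0.14 (adjusted p = 0.0282). Tnf was lower by -2.97 ± 0.74 (adjusted p = 0.0312). Cxcl10 was higher after SeV by 1.48 ± 0.38 (adjusted p = 0.0385), with 3.22 ± 0.61 at 45 min. The NF-κB genes Tlr2, Nfkbia, Icam1 and Tnfaip2 were at -0.33 ± 0.77, -0.42 ± 0.38, 0.48 ± 0.60 and 0.34 ± 0.36, with adjusted p from 0.878 to 0.974. Of the 131 genes called late, 23 were also called early and 114 had the same sign. With the Rn45s share as a covariate, 8 genes were called early.

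The change of the difference from early to late wells passed for 0 of 6173 genes (0.00%) by edgeR and 1 by DESeq2, with 290 at an unadjusted p under 0.05. The smallest p belonged to Tnfaip2, with a late minus early value of -1.88 ± 0.44 (adjusted p = 0.265), Mcl1, with -1.36 ± 0.35 (adjusted p = 0.412), and Cxcl10, with -1.71 ± 0.45 (adjusted p = 0.456). Socs3, a feedback inhibitor of cytokine signalling, gave -4.84 ± 1.30 (adjusted p = 0.456) and Snx14, a sorting nexin, 4.76 ± 1.30 (adjusted p = 0.456).

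Whether the difference was unequal across the DMSO, dCA1 and Brd plates was tested jointly, and 0 of 6173 genes (0.00%) passed by edgeR and 0 by DESeq2, with 343 at an unadjusted p under 0.05. Within plates, 2 genes (0.0324%) were called on DMSO, 15 (0.243%) on dCA1 and 0 (0.00%) on Brd by edgeR, the last with 364 at an unadjusted p under 0.05. On the DMSO, dCA1 and Brd plates, SeV minus Poly(I:C) for Ccl5 was -2.91 ± 0.69, -2.88 ± 0.75 and -1.47 ± 0.70. Tlr2 was at -2.59 ± 0.78, -3.10 ± 0.90 and -2.32 ± 0.80 and Nfkbia at -1.18 ± 0.41, -1.71 ± 0.43 and -1.68 ± 0.43. All 3 genes were lower after SeV on every plate. Ifit1 was at -1.29 ± 0.42, -0.05 ± 0.48 and 0.13 ± 0.43, with a p of 0.0390 and an adjusted p of 0.891 between plates in edgeR. Rsad2 was at -1.17 ± 0.41, -0.83 ± 0.42 and -0.24 ± 0.42. In this fit neither Rsad2 nor Ifit1 was among the 2 genes called on DMSO. The smallest p between plates were those of Cdc42bpb (adjusted p = 0.399), Appbp2, Mesdc1, Dlgap5 and Incenp (adjusted p = 0.835). Incenp, a centromere protein, was higher after SeV over all plates by 1.40 ± 0.33 (adjusted p = 0.00636), at 0.06 ± 0.52, 2.94 ± 0.57 and 1.45 ± 0.53 within them, and lost the call without the dCA1 plate or without 150 min (adjusted p up to 0.534).

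TF-seq reporter counts of the same wells covered 58 reporters, named for the factors or elements they respond to. Late totals ran from 716 to 1478 counts in NoStim, 1306 to 5655 after Poly(I:C) and 1031 to 3088 after SeV. Relative to the panel, 8 reporters (13.8%) differed between the stimuli, 6 higher after SeV (10.3%) and 2 lower (3.45%). The count was 3 and 4 without the dCA1 or Brd plate, 2 and 3 without 120 or 150 min, and 5 with each matched set of wells as a replicate block. NFkB_1, the NF-κB reporter, made up 13.2, 41.0 and 88.3 per 1000 reporter counts in NoStim (lowest, median and highest), 69.0, 170.4 and 292 after Poly(I:C) and 34.5, 75.1 and 218 after SeV. It was lower after SeV in 15 of 15 matched wells, by -1.10 ± 0.15 (adjusted p = 4.57e-09), and rose above NoStim after both stimuli, by 2.29 ± 0.16 after Poly(I:C) and 1.19 ± 0.16 after SeV. IFNB1_44, named for the interferon-β gene, differed by -0.61 ± 0.11 (adjusted p = 8.48e-06), lower in 14 of 15. Both were called in all 8 left-out fits. Scaled to the UMI of the well, which lowered the values of all reporters, they were also lower, NFkB_1 by -1.97 ± 0.27 and IFNB1_44 by -1.54 ± 0.22. The Ifnb1 transcript of the same wells, by contrast, was seen mainly after SeV, and the cause of this contrast was not tested.

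Reporters higher after SeV relative to the panel included NRF2_4 (0.54 ± 0.13), AP1_33 (0.44 ± 0.11), IRF3_10 (0.43 ± 0.11), TFEB_28 (0.26 ± 0.09) and IRF3.7_45 (0.26 ± 0.09). NRF2_4 lost the call without 120 min (adjusted p up to 0.0606), IRF3_10 without the dCA1 plate or without 120 or 150 min (adjusted p up to 0.139) and AP1_33 without the dCA1 or Brd plate or without 120 or 150 min (adjusted p up to 0.0751). TFEB_28 and IRF3.7_45 kept it without 60 min and lost it in the other 7 left-out fits (adjusted p up to 0.264 and 0.308). Scaled to the UMI of the well, the fitted value of each turned negative, from -0.28 ± 0.20 for NRF2_4 to -0.62 ± 0.19 for IRF3.7_45. On that scale 57 of 58 reporters were called lower after SeV, among them minP_58, named as a minimal promoter, at -0.87 ± 0.21 (adjusted p = 0.000179), which stood at 0.03 ± 0.10 on the panel scale. Against NoStim and relative to the panel, 11 reporters (19.0%) were called after SeV, 8 higher (13.8%) and 3 lower (5.17%), and 9 (15.5%) after Poly(I:C), 4 higher (6.90%) and 5 lower (8.62%). On this scale NRF2_4, AP1_33 and TFEB_28 fell below NoStim after Poly(I:C), by -0.90 ± 0.13, -0.80 ± 0.12 and -0.40 ± 0.10 (adjusted p up to 0.000956). After SeV they stood at -0.35 ± 0.14, -0.37 ± 0.12 and -0.14 ± 0.10, with AP1_33 called lower (adjusted p = 0.0153) and the others not called. Scaled to the UMI of the well, the same reporters rose after Poly(I:C), by 0.51 ± 0.20, 0.66 ± 0.19 and 1.07 ± 0.20 (adjusted p up to 0.0108). On the UMI scale they stood at 0.23 ± 0.20, 0.22 ± 0.19 and 0.46 ± 0.20 after SeV, where only TFEB_28 passed (adjusted p = 0.0363). IRF3_10 rose after SeV by 0.65 ± 0.13 (adjusted p = 4.49e-05) and stood at 0.22 ± 0.13 after Poly(I:C) (adjusted p = 0.271). On the panel scale ISRE_54 rose after both, by 0.52 ± 0.15 and 0.47 ± 0.14, with 0.05 ± 0.13 between them (95% interval -0.20 to 0.30).

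**Figure D5:**
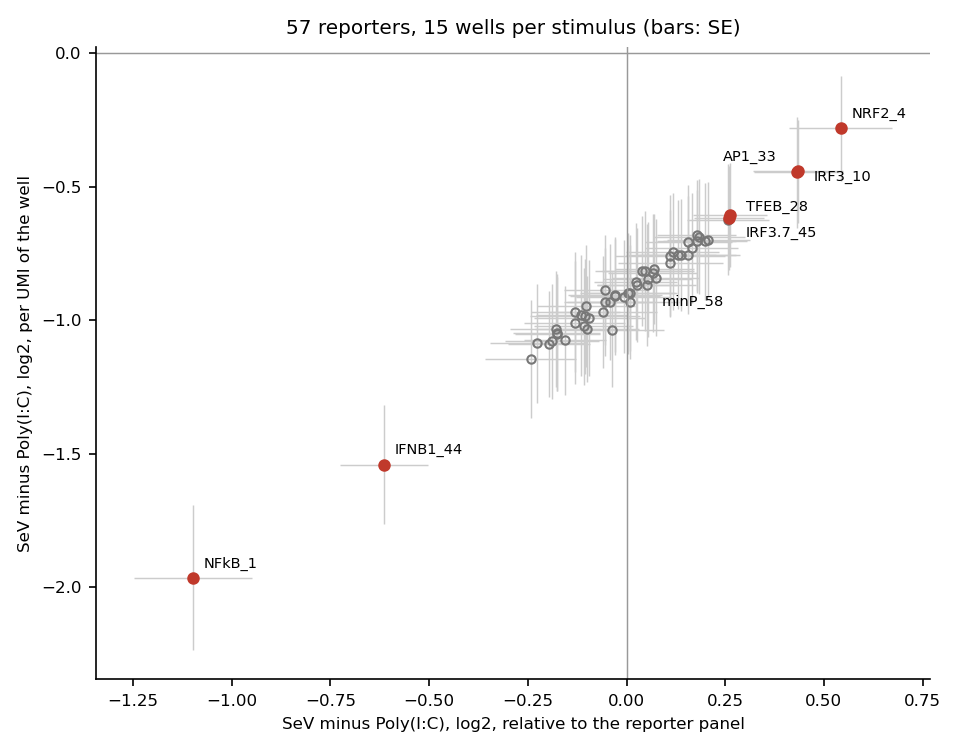
SeV minus Poly(I:C) of 57 of the 58 reporters in log2 units, relative to the reporter panel (horizontal axis) and per UMI of the well (vertical axis), with bars for the SE; red points have an adjusted p under 0.05 on the panel scale. NFkB_1 and IFNB1_44 lie lowest on both axes, and all 57 plotted lie below 0 on the vertical axis.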

How the data were processed

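The authors deposited UMI counts (unique molecular identifiers), total read counts per gene and TF-seq reporter counts, 1 column per well. Per the submitters' processing notes BWA, edgeR and the mm10 build were used; no versions are given. How the reporters entered the cells is not given in the sources used here. The deposited normalized reporter table held the same values as the reporter counts and was not used. All columns in use were matched to samples by their labels, leaving 0 columns unmapped, and no 2 wells had identical counts.

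UMI counts were tested in R 4.3.3 with edgeR 4.0.16 (quasi-likelihood, TMM, 2-sided, Benjamini-Hochberg over all tested genes, threshold 0.05) and limma 3.58.1, for genes averaging 1 UMI per well or more. Plate and time were blocks over the SeV, Poly(I:C) and NoStim wells. DESeq2 1.42.0 was an alternative. Reporter counts were tested alike, also scaled to the UMI of the well, an alternative added after seeing the data.

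Genes were named by rule: a list of 30 genes, the 10 largest called differences each way averaging 2 UMI per well or more in the SeV or in the Poly(I:C) wells, up to 3 members each way per gene list by smallest p, the 5 smallest p of each interaction test, and up to 6 reporters each way. Exceptions are marked in the text. The members, lists and tests were chosen with earlier results of these data known. On simulated counts for the late comparison (6173 genes), the test called 14 of 100 genes with a 2-fold change, 46 of 100 with a 4-fold change and 7 of 5973 unchanged ones. Among the changed genes averaging at least 5 UMI per well, it called 10 of 24 and 24 of 28. The simulated wells held no plate, time or Rn45s differences, so these rates need not hold for the real wells. A result on a reporter and a result on a marker gene are not reported here.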

Additional observations from a re-analysis of the deposited data

Results flagged for a closer look

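In the Poly(I:C) wells, the share of the NFkB_1 reporter at 60 min stood apart from the other late times of its plate on 2 of 3 plates. On the dCA1 plate it was 100.7 per 1000 reporter counts, against 153.2 to 167.3 in the other 4 wells. On the Brd plate it was 74.27, against 150.3 to 168.4. Each of those wells was far below the others of its plate by Dixon's rule for 5 samples. Of 48 sets of wells examined, these 2 stood out, and chance alone gives about 1 in 20. The wells of a set differ in time, so they are not replicates of 1 condition.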

How the results depend on the processing

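Of the tests on named genes under the alternatives, those on called genes kept direction and call in 619 cases, lost the call in 363 and changed sign in 1, and those on uncalled genes kept both in 465, gained a call in 22 and changed sign in 51. Causes were not tested. Genes called between SeV and Poly(I:C) numbered 222 with DESeq2, 55 on read counts, 82 in wells of 120 to 180 min, 12, 12 and 9 on the DMSO, dCA1 and Brd plates alone, 22 with the Rn45s share as a covariate, and 39 to 115 with 1 plate or time left out. They numbered 119 with each matched set of wells as a replicate block and 106 without any block. Poly(I:C) against NoStim gave 284 with DESeq2, 267 without TMM, 90 on read counts, 39, 31 and 24 on single plates, 25 with the covariate and 81 to 160 in left-out fits. SeV against NoStim gave 8 without a block, 4 over all 8 times, 8, 1 and 5 on single plates and 4 to 15 in left-out fits. The early comparison gave 47 without TMM, 16 on read counts, 8 with the covariate and 61 with DESeq2. Without the low-count filter 3 genes passed between plates and 3 between early and late wells, and DESeq2 gave 1 for the latter. Reporters numbered 5 with the replicate block, 2 without a block, 5 over all times, 2, 3 and 1 on single plates, 57 per UMI and 2 to 8 in left-out fits. Per UMI, 58 were called after Poly(I:C) and 41 after SeV against NoStim.

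SeV minus Poly(I:C) changed sign in these cases. With DESeq2 Nfkbiz was at 0.052 and Ifih1 at 0.040. Without TMM Isg15 was at -0.040 and Il12b at -0.014. On read counts Il12b was at -1.03. With the replicate block Fos was at -0.054. Without a block Ifit2 was at -0.071 and Fos at -0.15. In wells of 120 to 180 min Ifit2 was at -0.034, Cxcl1 at 0.87, Cxcl2 at 0.53 and Nfkbiz at 0.0077. Over all 8 times Cxcl10 was at 0.28, Nfkbiz at 0.35 and Fos at -0.49. On the DMSO plate alone Ifit2 was at -0.68, Il12b at -1.69, Ccl3 at 0.061 and Incenp at -0.019. On the dCA1 plate alone Ifit1 was at 0.014, Irf7 at 0.27, Usp18 at 0.24, Nfkbiz at 0.64, Tnfaip3 at 0.40 and Fos at -0.61. On the Brd plate alone Ifit1 was at 0.15, Isg15 at -0.27, Cxcl10 at 0.15, Irf7 at 0.27, Tlr3 at 0.15 and Ifih1 at 0.70. With the Rn45s covariate Ifit2 was at -0.16, Il12b at -0.33 and Nfkbiz at 0.11. On thinned counts Isg15 was at -0.055, Il12b at -0.40 and Nfkbiz at 0.28. Per UMI of the well NRF2_4 was at -0.28, IRF3_10 at -0.45, TFEB_28 at -0.61, AP1_33 at -0.44 and IRF3.7_45 at -0.62. In left-out fits the values ran from -0.70 to 0.082 for Ifit1, from -0.24 to 1.01 for Ifit2, from -0.029 to 0.59 for Isg15, from -0.38 to 0.045 for Cxcl10, from -0.50 to 0.31 for Irf7, from -0.036 to 0.86 for Il12b, from -0.25 to 0.20 for Nfkbiz, from -1.09 to 0.24 for Tnfaip3, from -0.79 to 1.10 for Fos and from -0.81 to 0.49 for Ifih1. With 50175 to 125974 UMI per well, many cytokine genes were too low to test.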
